A study of Mus musculus with 12 samples.

Results

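Bone marrow monocytes (BM) and KO fetal liver monocytes (KO) were compared across all genes, as the groups in which the transcription factor gene Zeb2 was highest and lowest. The comparison used 6 of the 12 libraries of the series, 3 from each group. Of 55487 genes in the count table, 14618 passed a filter on low counts and were tested. Each library was bulk RNA-seq of mouse cells described as Ly6C+ monocytes. BM had the genotype label WT and no stated age, and KO had the genotype label KO and came from fetal liver at embryonic day E13.5. WT fetal liver monocytes (WT 1 at E13.5, WT 2 and WT 3 at E15.5) gave the level from which KO and BM were judged. A further 3 fetal liver libraries titled Mixed (genotype label WT, E15.5) gave an added reference. The sources used here do not give the allele in the KO libraries, the meaning of Mixed, the strain, or whether separate animals supplied the 3 libraries of a group. BM and KO differ in tissue, age and genotype at once, and these cannot be told apart by comparing them directly. The p-values measure differences against the spread between libraries alone, and part of that spread may be technical.

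Monocytes are phagocytes that leave the blood-forming organs for the blood and become macrophages and dendritic-like cells in tissues. In the embryo they are made in the fetal liver, and after birth in the bone marrow. Zeb2 encodes a zinc finger repressor that binds E box motifs in DNA. In the haematopoietic lineages it is known for counteracting Id2, an inhibitor of E proteins, and for separating the monocyte and plasmacytoid dendritic cell fates from that of type 1 conventional dendritic cells. MHC class II molecules present antigen to CD4 T cells and are switched on by the coactivator encoded by Ciita. Type I interferon acts through transcription factors such as STAT2 and IRF9, which bind the interferon-stimulated response element (ISRE) of antiviral genes.

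The BM and KO libraries held 18208886 to 24473471 counts. Mitochondrial transcripts made up 0.976 to 1.03% of counts in BM and 1.98 to 2.2% in KO. BM 1 had a count in 24422 genes, and the other 5 libraries in 19779 to 20423. Across genes, which are not independent replicates, log CPM (counts per 1e+06 counts) correlated at 0.9851 to 0.9879 within BM, at 0.9858 to 0.986 within KO and at 0.8922 to 0.8963 between them. The Y-linked gene Ddx3y was at 53.8 CPM in KO 1 and 44.4 CPM in KO 2 and had no count in KO 3 and the 3 BM libraries, so sex-linked genes varied within KO and between the groups.

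The defining markers of Ly6C+ monocytes were present in both groups. Ly6c2, which encodes the sorted surface protein, was at 1907, 1973 and 1993 CPM in BM and at 1536, 1684 and 1372 CPM in KO. Csf1r, the receptor of macrophage colony-stimulating factor, was at 1081, 1186 and 1186 CPM in BM and at 353, 354 and 394 CPM in KO. Ccr2, the chemokine receptor of marrow egress, was at 2240.0, 2137 and 2123 CPM in BM and at 640.3, 713 and 682 CPM in KO. All 3 genes were lower in every KO library than in every BM library, but all were far above the levels of T and NK cell genes: Cd3e was at 0 in KO and at 0.326 to 0.595 CPM in BM.

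Markers of other blood cells and of liver also differed between the groups, not all in the same direction. Of 16 measured erythroid genes 15 were higher in KO, and their summed level was 30.8 to 47.4 CPM in BM and 782 to 1562 CPM in KO. Of 11 measured liver parenchyma genes 10 were higher in KO, although the sum of the list was higher in BM (514 to 559 CPM) than in KO (169.9 to 272 CPM) through Trf, the transferrin gene. Alb, the albumin gene, had no count in BM and 47, 69 and 250 counts in KO, at least 37.6-fold higher with a floor of 3 counts per BM library. Ltf, a neutrophil granule gene, was at 43.6, 67.3 and 87.8 CPM in BM and 454, 98.9 and 137 CPM in KO, with KO 1 well above KO 2 and KO 3. In WT it was at 178, 236 and 586 CPM. Of the other neutrophil markers, Ly6g, Camp and Cxcr2 were higher in every KO library than in BM, and the groups overlapped for Ngp. Retnlg was at 30.8, 35.9 and 34.6 CPM in BM and 32.9, 8.3 and 8.95 in KO, lower in KO 2 and KO 3. In bulk RNA, fewer cells of a type and less RNA per cell cannot be told apart, and the part of these other cells in the results that follow was not tested.

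Zeb2 was 14.6-fold lower in KO than in BM. It was at 311, 319.7 and 338 CPM in BM and at 23.8, 20.1 and 22.5 CPM in KO, with WT between them at 141, 143 and 165 CPM. The groups lay far apart, with a log2 difference of -3.86 (SE 0.0746); since they were chosen for their Zeb2 level, this is a description and no test is given. Zeb2 lies on chromosome 2, 44983632 to 45117395, minus strand (GRCm38), and the antisense gene Zeb2os lies within its span, so reads of the pair cannot be separated without strand. Zeb2os was at 8.85, 7.08 and 7.94 CPM in BM, 3.41, 3.21 and 3.63 in KO and 17.7, 17.4 and 21.0 in WT. Its order was thus WT, BM, KO, unlike that of Zeb2.

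Other genes tied to Zeb2 went the other way. Zeb1, its paralogue, was at 3.57, 3.40 and 3.82 CPM in BM and at 31.6, 32.5 and 32.8 CPM in KO, 8.96-fold higher (log2 3.16, SE 0.155, edgeR quasi-likelihood test, adjusted p = 1.01e-13). WT was at 4.35, 3.66 and 3.85 CPM, near BM, and KO stood apart from both. Id2 was at 138, 141 and 136 CPM in BM and at 2535, 2545 and 2375 CPM in KO, 18.0-fold higher (SE of the log2 difference 0.0537, adjusted p = 1.83e-22). WT, at 509.9, 469 and 445 CPM, lay between them for Id2, which thus ran opposite to Zeb2 over the 3 groups. Maf, which encodes the cMaf of the series title, was at 4.29, 2.94 and 2.63 CPM in BM and 12.7, 7.94 and 9.34 in KO, 3.06-fold higher (adjusted p = 5.22e-07), and at 13.9, 12.1 and 14.9 CPM in WT.

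**Figure D1:**
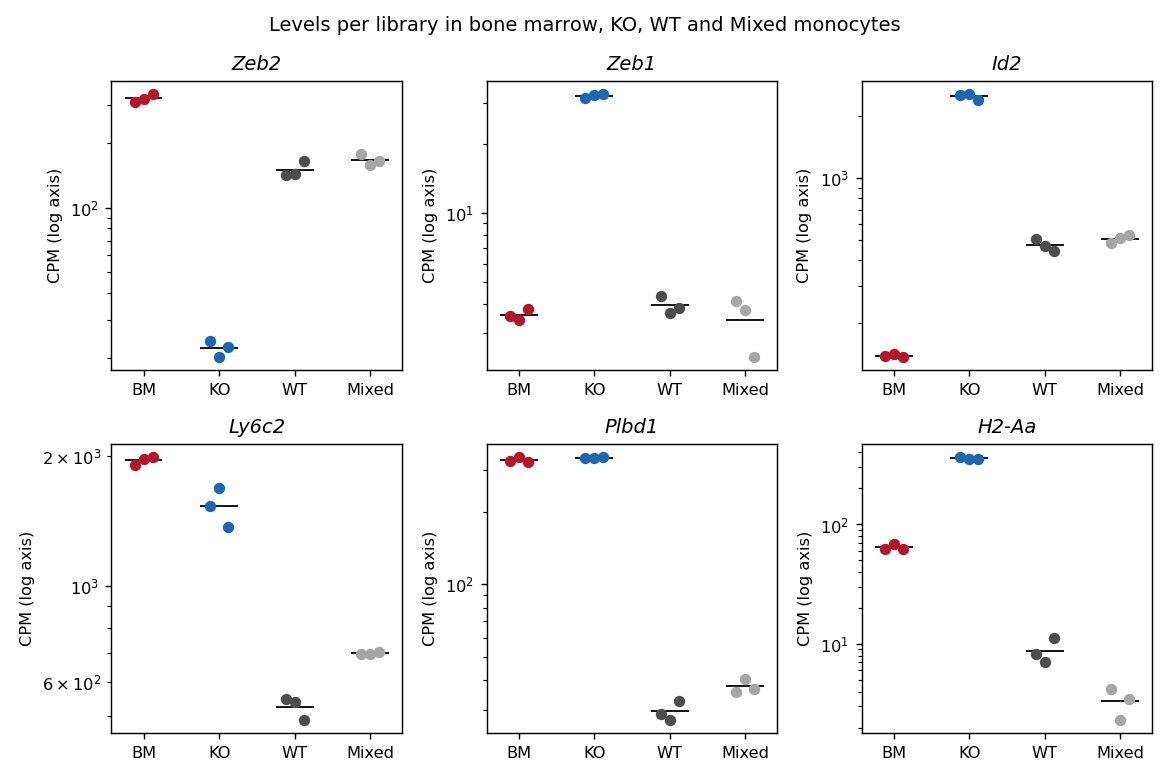
CPM on a log axis for 6 genes, 1 point per library, with a line at the mean of the 3 libraries of each group (BM red, KO blue, WT dark grey, Mixed light grey). Zeb2 runs from 338 CPM in a BM library to 20.1 in a KO library with WT and Mixed between, whereas Ly6c2 and Plbd1 are high in BM and KO, and H2-Aa is highest in KO.

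The comparison of BM with KO called 9330 of the 14618 genes at an adjusted p under 0.05, 63.8% of those tested. Of these, 4681 were higher in KO (32%) and 4649 lower (31.8%). A change of at least 2-fold was called for 1882 genes higher in KO (12.9%) and 1809 lower in KO (12.4%). The groups of 3 did not overlap for 9895 genes (67.7%), and the median log2 difference over all genes was near 0. Tested against a 1.5-fold change, 4309 genes were called. With a background this wide, a count of called genes in a list was read against 32% higher and 31.8% lower.

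Among genes averaging at least 3 log2 CPM over BM and KO, Chil3 and Sulf2 fell furthest in KO. Chil3, which encodes the chitinase-like protein Ym1, was at 2177, 2147 and 2140.3 CPM in BM and at 2.59, 0.841 and 0.507 CPM in KO (log2 -10.67, SE 0.61, adjusted p = 4.3e-08). Fn1, the fibronectin gene, was at 3109, 3297 and 3457 CPM in BM and 25.1, 30.6 and 30.0 in KO, 115-fold lower (adjusted p = 9.02e-12). Both were low in WT too, at 2.18, 2.50 and 6.86 CPM for Chil3 and 60.6, 72.2 and 91.3 CPM for Fn1, and KO was below WT as well for Fn1. Cd177, a surface glycoprotein gene, was at 499, 576 and 566 CPM in BM and at 21.1, 3.57 and 5.03 CPM in KO, with KO 1 above the others. Ms4a4a, of the MS4A membrane family, was at 133, 141 and 141 CPM in BM and 3.27, 2.58 and 1.94 in KO, 53.3-fold lower (adjusted p = 1.72e-19). Sulf2, Abca9, Ptgir and Smim5 completed the 8 most reduced at that level, with log2 differences of -8.09, -6.31, -6.16 and -5.81.

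The largest rises in KO above the same level included the stefin A cluster of cysteine protease inhibitors. Stfa1 was at 0.385, 0.513 and 0.496 CPM in BM and 4166, 4169 and 3603 in KO, against 1577, 1373 and 1796 in WT. Its close relatives Cstdc5, Cstdc4 and Stfa2l1 rose by 13.48, 11.20 and 9.50 on the log2 scale, and because these genes are near copies, how reads were divided among them is uncertain. Stfa2 had 3 counts over the BM libraries and 8922 over the KO libraries, a ratio of 2750 (95% exact interval 941 to 13300, counting error only). Olfm4, a neutrophil granule glycoprotein gene, was at 0.769, 0.885 and 0.0496 CPM in BM and 487, 266 and 348 in KO (log2 9.32, SE 0.927, adjusted p = 3.06e-07). Ifitm1, an interferon-induced membrane protein gene, was at 3.08, 4.24 and 4.37 CPM in BM, 896, 977 and 914 in KO and 59.2, 61.6 and 39.1 in WT. The beta globin gene Hbb-bt was also among the 8 that rose most above that level, at 0.605, 0.885 and 3.08 CPM in BM and 275, 127 and 191 in KO, and it is one of the erythroid markers that moved with the comparison.

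**Figure D2:**
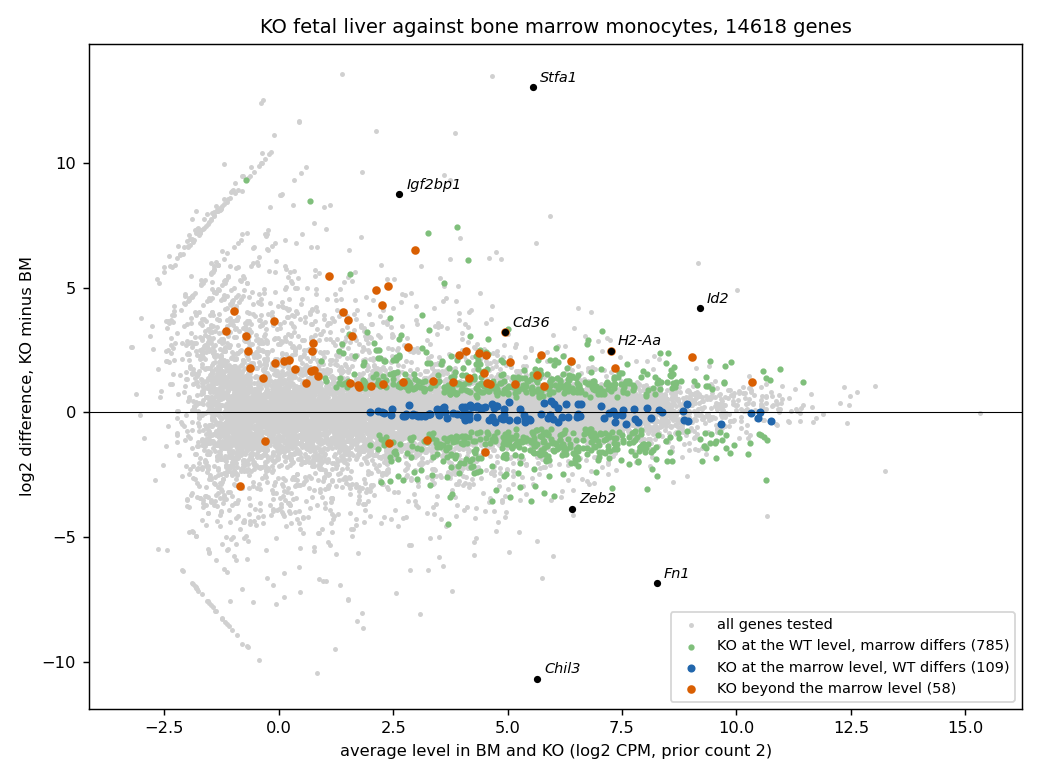
Log2 difference between KO and BM (vertical axis) against the average level in the 6 libraries (log2 CPM, prior count 2), 1 point per gene tested. The 109 genes with KO at the marrow level (blue) lie along 0 by construction, the 58 beyond it (orange) lie mostly above, and the 785 at the WT level (green) lie on both sides.

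Of the genes tested, 3607 differed between BM and WT by 2-fold or more (24.7%), 1838 higher and 1769 lower in BM. These 3607 were sorted by where KO stood. KO counted as at the marrow level where it was called different from WT in the same direction as BM and the 95% interval of its difference from BM lay inside 1.5-fold. It counted as beyond where it was called past BM by 2-fold or more, on the side away from WT. It counted as at the WT level where the interval of its difference from WT lay inside 1.5-fold and it was called different from BM. KO was at the marrow level for 109 genes (0.746% of those tested, 3.02% of the 3607), beyond it for 58 (0.397%), at the WT level for 785 (5.37%) and between WT and BM for 554 (3.79%). For 287 genes (1.96%) KO lay on the other side of WT from BM, and 1814 of the 3607 met none of these rules. The classes were drawn from the values and their comparisons share libraries, so the members are described as such. Being called against BM, or not, is part of the rules. No p-value against BM is given for members at the marrow level, beyond it or at the WT level. A p-value given for another gene is from the test over all genes and is no support for its place between WT and BM.

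Genes with KO at the WT level thus outnumbered those with KO at the marrow level, 785 to 109. Of the 109, 87 were higher in BM and KO than in WT (0.595% of the genes tested) and 22 were lower (0.15%). Being inside 1.5-fold did not mean being equal: 30 of the 87 were still called between KO and BM, 24 lower and 6 higher in KO, with log2 differences from -0.48 to 0.35. The mean of Mixed was on the WT side of all 3 BM libraries for 87 of the 87 and 22 of the 22. For genes beyond the marrow level it was so for 47 of 53 higher and 5 of 5 lower. Mixed was close to WT (log CPM correlation 0.9813 to 0.9868), and members were chosen for a gap between BM and WT. These counts were thus largely set by the rule and are no separate check. The counts depend on the bound: with a tighter bound of 0.32 on the log2 scale 19 genes were at the marrow level and 265 at the WT level, and with a bound of 2-fold 423 and 1531. At the edge of the rule, the intervals of Ahcyl2, Mphosph10 and Tmem140 reached 1.5, 1.499 and 1.492-fold, and those of Tnfrsf26, Mcrip2 and Slc19a1, just outside, reached 1.502, 1.508 and 1.511-fold.

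Plbd1 and Prr5l had the widest gaps between BM and WT among genes at the marrow level, alike at log2 3.48 and 3.47. Plbd1, which encodes a phospholipase B-like protein, was at 325, 339 and 324 CPM in BM, 335, 337 and 339.9 in KO and 28.8, 27.3 and 32.5 in WT. BM and KO overlapped and every WT library was far below them, with a log2 difference of 0.03 between KO and BM (95% interval -0.09 to 0.16). Prr5l, whose product binds the mTORC2 kinase complex, was at 22.5, 25.7 and 24.1 CPM in BM, 29.4, 28.9 and 29.5 in KO and 2.57, 1.79 and 2.21 in WT. Ms4a4b, an MS4A gene known from T cells, was at 41.8, 41.9 and 43.9 CPM in BM, 37.6, 44.0 and 36.9 in KO and 9.15, 7.91 and 7.38 in WT. KO was a little above BM for Prr5l (interval 0.06 to 0.50) and overlapped it for Ms4a4b (interval -0.30 to 0.09).

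Trp53inp1, a p53 target involved in autophagy, was at 18.4, 16.9 and 19.3 CPM in BM, 21.0, 22.3 and 20.2 in KO and 3.63, 2.23 and 3.38 in WT. Osbpl3, an oxysterol-binding protein gene, was at 16.5, 16.4 and 13.7, 20.6, 16.6 and 16.8 and 2.85, 2.55 and 2.96 CPM in the same order of groups. Sdc3, the proteoglycan gene syndecan 3, was at 29.2, 25.6 and 27.9, 23.9, 23.4 and 22.02 and 5.69, 5.67 and 5.50 CPM. Trp53inp1 and Osbpl3 were slightly higher and Sdc3 slightly lower in every KO library than in BM, and all 3 lay several fold above WT. The sorting marker itself was of this kind: Ly6c2 was at 526 CPM on average in WT, and KO was below BM by 0.35 on the log2 scale (interval -0.48 to -0.23). Its neighbour Ly6i was at 11.05, 11.1 and 7.94 CPM in BM, 9.73, 10.8 and 8.07 in KO and 0.781, 0.938 and 1.17 in WT.

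Interferon genes made up the largest named group at the marrow level. Of 30 type I interferon genes measured, 21 differed between BM and WT by 2-fold or more, and 11 of the 30 were at the marrow level in KO (10.1% of the 109, 36.7% of the list), set against 0.746% of all genes tested. The 11 were Dhx58, Ifit2, Irf7, Irf9, Mx1, Mx2, Oas1a, Parp14, Stat2, Usp18 and Xaf1. The median log2 difference over the 30 was 0.16 between KO and BM, 1.38 between BM and WT and 1.49 between KO and WT, with medians over all genes near 0 in each. With the tighter bound 4 of the list were in the class. Of the 30, 13 were higher in KO than in BM, 5 were lower and 12 were not called.

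The transcription factors that carry the interferon signal were among them. Stat2 was at 176, 168 and 164 CPM in BM, 173, 156 and 149.9 in KO and 51.3, 55.0 and 51.5 in WT (KO minus BM log2 -0.09, interval -0.22 to 0.05). Irf7, the factor that amplifies interferon production, was at 282, 322 and 321 CPM in BM, 379, 339 and 268 in KO and 103, 99.2 and 101 in WT (interval -0.12 to 0.30). Irf9, the DNA-binding partner of STAT2, was at 188, 188 and 184, 152, 144 and 131 and 89.0, 84.8 and 84.3 CPM. BM and KO overlapped for Stat2 and Irf7, whereas every KO library was below every BM library for Irf9.

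Antiviral effectors of the class were, by its rule, near the same level in BM and KO, whereas others of the list were not. Mx1, a GTPase against influenza viruses, was at 60.3, 63.3 and 66.5 CPM in BM, 60.6, 64.2 and 50.4 in KO and 24.4, 18.7 and 23.4 in WT. Oas1a, an oligoadenylate synthetase that senses double-stranded RNA, was at 93.9, 104 and 96.5, 91.3, 84.9 and 83.5 and 45.1, 44.5 and 30.0 CPM. Usp18, which removes ISG15 from proteins and damps the interferon receptor, was at 113, 124 and 122, 171, 155 and 109.5 and 32.1, 30.2 and 28.8 CPM, with BM and KO overlapping and KO 3 the lowest of the KO libraries. The same library was the lowest of the 3 KO libraries for all 11 members and for 29 of the 30 genes of the list, against 31.8% of all genes tested, and it held the most counts of Alb. Without KO 3, 16 of the 30 were higher in KO, 3 lower and 9 at the marrow level, and without BM 3 those lower in KO were also 3. Ifit1bl1, an IFIT family member, was at 19.02, 15.4 and 17.1 CPM in BM, 20.6, 23.1 and 16.4 in KO and 3.46, 4.11 and 3.62 in WT.

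Of the 19 interferon genes outside the class, 12 were higher and 3 lower in KO than in BM, and 4 were not called. Ifi205, of the Ifi200 family of DNA sensors, was at 27.8, 28.3 and 28.4 CPM in BM, 495, 494 and 393 in KO and 21.98, 23.3 and 19.3 in WT, so that BM and WT were close and KO stood apart (log2 KO minus BM 4.03, SE 0.0942, adjusted p = 3.14e-16). Isg15, the ubiquitin-like modifier, was at 21.0, 22.9 and 23.3 CPM in BM and 79.1, 69.7 and 48.4 in KO, 2.93-fold higher (adjusted p = 1.18e-07). Ifi204 was 2.21-fold higher in KO (adjusted p = 1.97e-09). Ifit3 and Cmpk2 were 1.90-fold and 1.86-fold lower in KO than in BM (adjusted p = 5.38e-08 and 1.48e-07).

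To show the DNA in front of genes of this class, the 250 bases before the RefSeq start were searched on both strands for the ISRE core, which is GAAA, any 2 bases and GAAA again. It was present in 11 of 71 promoters matched for genes at the marrow level and higher than WT (15.49%), in 10 of 20 promoters of the interferon list (50%), and in 338 of 10045 promoters of all genes tested (3.36%). Of the 11 members of the list at the marrow level 6 had a promoter, and 2 of these held the core (33.3%). A match is a description of letters, not of a bound site. The promoters of Stat2 (chr10:128270248-128270497, plus strand) and Oas1a (chr5:120907526-120907775, minus strand) are printed 5′ to 3′ on the strand of the gene (RefSeq, GRCm38.p6), as members of the class with a match, which is in capitals. The match starts 222 bases before the start in Stat2, read on the opposite strand, and 20 and 14 bases before it in Oas1a, where 2 matches overlap.
Stat2: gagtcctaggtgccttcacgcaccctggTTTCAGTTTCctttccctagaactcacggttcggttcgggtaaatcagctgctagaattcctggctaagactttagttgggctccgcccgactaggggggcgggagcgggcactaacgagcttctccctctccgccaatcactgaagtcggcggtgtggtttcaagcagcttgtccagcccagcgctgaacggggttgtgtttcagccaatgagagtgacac
Oas1a: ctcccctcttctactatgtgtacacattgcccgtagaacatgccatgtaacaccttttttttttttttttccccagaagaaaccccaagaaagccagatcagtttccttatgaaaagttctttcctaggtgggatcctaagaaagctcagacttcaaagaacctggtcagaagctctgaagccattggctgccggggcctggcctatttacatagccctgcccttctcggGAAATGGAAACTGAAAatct

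Genes of antigen presentation by MHC class I took different places in KO. Of the 16 measured, 3 were at the marrow level, 3 at the WT level and 4 between WT and BM, and the others were in no class. The peptide transporter gene Tap1 was at 149.8, 164 and 151 CPM in BM, 170.4, 164 and 143 in KO and 42.3, 42.4 and 42.4 in WT (KO minus BM log2 0.04, interval -0.09 to 0.17). The immunoproteasome subunit gene Psmb8 was at 426, 473 and 454, 441, 469 and 491 and 186, 167 and 203 CPM (interval -0.08 to 0.18). For both, BM and KO overlapped and WT lay below them, and Tapbp, the tapasin gene, was also in the class. The heavy chains did not follow: H2-D1 was at 3684, 4355 and 4169 CPM in BM, 622, 608 and 656 in KO and 548, 523 and 690.1 in WT, and H2-K1 at 692, 779 and 761, 130.5, 124 and 128 and 99.5, 98.0 and 124 CPM. H2-D1, H2-K1 and B2m, the light chain, were lower in KO than in BM by 6.47-fold, 5.84-fold and 2.44-fold and were at the WT level. Of the 16 class I genes measured, 12 were lower and 2 higher in KO than in BM, with a median log2 difference of -1.39 against near 0 over all genes. Nlrc5, the class I coactivator, was at 28.2, 30.5 and 31.8 CPM in BM, 13.6, 11.7 and 6.97 in KO and 2.34, 2.28 and 2.25 in WT, between WT and BM. The heavy chain genes are close copies, and how reads were divided among them is uncertain.

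Further members at the marrow level were named after their values were seen. Anxa2, a membrane-binding annexin gene, was at 1214, 1339 and 1303 CPM in BM, 1133, 1357 and 1302 in KO and 527, 552 and 592 in WT. Ifitm3, which blocks virus entry, was at 1420.0, 1467 and 1484, 1513, 1532 and 1326 and 689, 699 and 553 CPM. Rnase6, an antimicrobial ribonuclease gene, was at 208, 200.2 and 208, 209, 257 and 215 and 62.0, 62.5 and 68.5 CPM. BM and KO overlapped for Anxa2 and Ifitm3, KO was slightly higher for Rnase6, and every WT library was lower for all 3. Tlr9, the receptor of unmethylated DNA, was at 5.99, 5.08 and 5.85, 5.59, 5.57 and 4.48 and 1.90, 2.37 and 2.58 CPM. Naaa, a lysosomal amidase gene that type 1 dendritic cells also express, was at 233, 246 and 243, 212, 199.9 and 198 and 65.9, 66.4 and 55.6 CPM. Ptprc, which encodes CD45, was within the bound but lower in every KO library, at 957, 951 and 976 CPM in BM and 705, 655 and 707 in KO.

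The 22 genes at the marrow level but lower than WT had smaller gaps. Gpx3, the secreted glutathione peroxidase gene, was at 82.0, 85.5 and 82.3 CPM in BM, 104, 96.4 and 111 in KO and 228, 236 and 284 in WT. Dok2, an adaptor that restrains tyrosine kinase signalling, was at 17.04, 19.4 and 17.7, 16.3, 16.2 and 19.2 and 46.4, 48.9 and 52.1 CPM. BM and KO overlapped for Dok2, and KO was above BM and below WT in every library for Gpx3. Other members named by the rule were Prodh, Afap1l1, Mtap, Slc16a6 and Snhg15, with log2 differences between KO and BM of -0.15, -0.14, 0.40, 0.25 and 0.30. The macrophage gene Gpnmb was at 4.56, 4.61 and 4.17 CPM in BM, 5.14, 2.79 and 5.79 in KO and 20.5, 24.2 and 31.7 in WT.

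**Figure D3:**
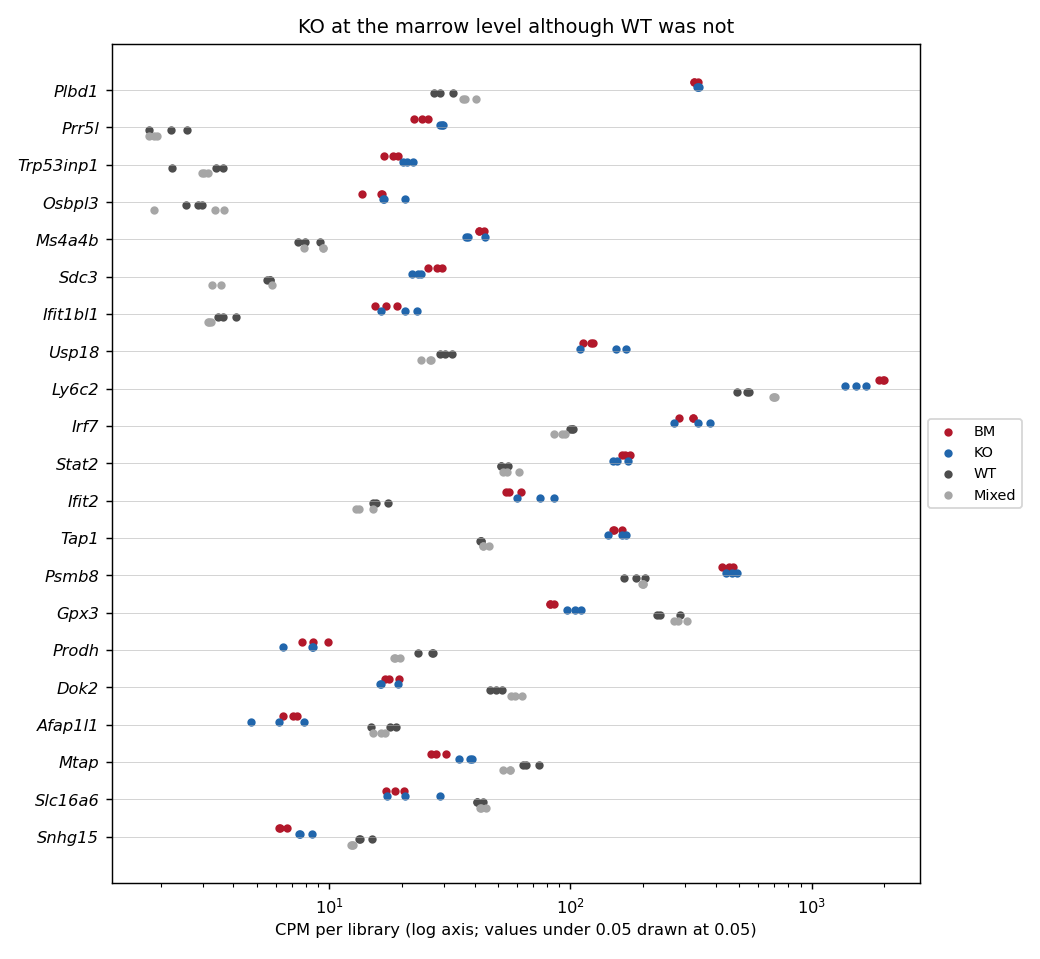
CPM per library on a log axis for 21 genes with KO at the marrow level, 1 point per library (BM red, KO blue, WT dark grey, Mixed light grey). For Plbd1 the BM and KO points lie between 324 and 340 CPM and those of WT between 27.3 and 32.5, and the lowest 7 genes show the reverse order with smaller gaps.

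KO went beyond the marrow level in 58 genes, 53 of them higher (0.363% of the genes tested) and 5 lower (0.0342%), and the MHC class II genes led by group. Of 12 class II genes measured, 5 were beyond the marrow level (8.62% of the 58, 41.7% of the list), set against 0.397% of all genes tested. H2-Aa, the alpha chain, was at 62.0, 68.9 and 62.7 CPM in BM, 368, 353 and 355 in KO and 8.26, 7.01 and 11.1 in WT. H2-Ab1, the beta chain of the same molecule, was at 79.6, 97.2 and 87.2, 329, 291 and 289 and 6.42, 6.25 and 11.1 CPM. H2-Eb1, a beta chain of I-E, was at 21.8, 27.5 and 22.7, 121, 109.7 and 122 and 2.23, 3.89 and 4.51 CPM. None of the groups overlapped in these genes, WT was lowest and KO highest, and KO exceeded BM by 5.56-fold, 3.44-fold and 4.90-fold. Cd74, the invariant chain, was at 785, 877 and 881, 1949, 1962 and 1961 and 75.1, 75.1 and 99.5 CPM, and Ciita at 5.99, 7.04 and 8.83, 41.7, 37.4 and 40.2 and 0.446, 0.938 and 0.376 CPM, so that KO was 2.31-fold and 5.45-fold above BM.

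The class II pathway did not move as a block. The peptide editors H2-DMa and H2-DMb1 were 2.23-fold and 3.26-fold lower in KO than in BM (adjusted p = 1.69e-13 and 1.7e-14), as was Ctss, the cathepsin that cleaves the invariant chain, by 2.65-fold and at the WT level. H2-DMb2 and H2-Oa were higher in KO by 2.63-fold and 5.37-fold (adjusted p = 3.1e-11 and 3.49e-11). H2-Ob was alike in BM (4.23, 3.91 and 2.53 CPM) and KO (4.23, 3.57 and 3.97 CPM) and at most 0.134 CPM in WT, but its interval of -0.46 to 0.75 on the log2 scale was too wide for the rule. Of the 12 genes, 7 were higher and 4 lower in KO than in BM, with a median log2 difference of 1.30.

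Class II promoters carry a Y box near the start, and the letters CTGATTGG were found on either strand in 3 of 9 matched promoters of the list (33.3%), against 679 of 10045 of all genes tested (6.76%). The promoters of H2-Aa (chr17:34287824-34288073, minus strand) and H2-Eb1 (chr17:34305617-34305866, plus strand) are printed as the class members of the list whose promoters were matched, 5′ to 3′ on the strand of the gene (RefSeq, GRCm38.p6), with the Y box in capitals. It starts 51 bases before the start of H2-Aa and 62 before that of H2-Eb1. The same letters were in 6 of 14 matched promoters of the class I list (42.9%), most genes of which were lower in KO. The Y box was thus not particular to genes beyond the marrow level, and these shares were not tested.
H2-Aa: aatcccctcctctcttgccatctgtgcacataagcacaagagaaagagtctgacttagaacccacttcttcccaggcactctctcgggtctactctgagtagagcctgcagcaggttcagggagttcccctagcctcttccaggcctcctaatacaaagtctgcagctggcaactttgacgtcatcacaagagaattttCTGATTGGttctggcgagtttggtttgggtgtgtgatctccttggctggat
H2-Eb1: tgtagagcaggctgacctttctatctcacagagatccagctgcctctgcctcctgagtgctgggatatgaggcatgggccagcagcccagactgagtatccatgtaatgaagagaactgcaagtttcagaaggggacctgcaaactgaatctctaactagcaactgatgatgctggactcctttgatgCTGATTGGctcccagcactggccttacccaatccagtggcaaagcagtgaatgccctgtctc

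Dendritic cell genes were the next group beyond the marrow level. Flt3, the cytokine receptor of dendritic cell precursors, was at 16.1, 15.4 and 17.7 CPM in BM, 66.9, 60.7 and 70.3 in KO and 6.42, 7.51 and 5.50 in WT. Clec9a, a receptor of dying cells on type 1 dendritic cells, was at 0.879, 1.12 and 1.09, 23.2, 20.1 and 18.3 and 0.0558, 0 and 0.0940 CPM. Dpp4, which encodes the peptidase CD26, was at 40.2, 38.9 and 36.8, 78.9, 79.1 and 81.6 and 3.51, 3.26 and 2.54 CPM. KO was highest in every library, by 4.02-fold, 19.8-fold and 2.07-fold over BM. Of 18 conventional dendritic cell genes measured, 11 were higher in KO than in BM and 5 lower, with a median log2 difference of 1.40, and 13 lay outside both BM and WT by 2-fold or more, as did 3.67% of all genes tested above both and 2.23% below both.

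Genes of the list known from different dendritic cell types are given side by side, and no difference between types was tested. Of type 1 genes, Batf3, a factor required for that type, was at 4.73, 4.38 and 5.70 CPM in BM and 51.7, 62.6 and 56.8 in KO (11.5-fold, adjusted p = 3.26e-16), and Cadm1 at 0.879, 0.326 and 0.149 and 21.9, 21.4 and 22.2 CPM (49.3-fold, adjusted p = 1.79e-12). Of genes known from type 2 dendritic cells and monocyte-derived cells, Cd209a was at 62.9, 72.7 and 61.4 CPM in BM and 0, 0 and 0.676 in KO, and Irf4 at 18.0, 13.3 and 14.9 and 0.682, 0.158 and 0.887 CPM (25.6-fold lower, adjusted p = 2.89e-10). Clec10a had 2277 counts over the BM libraries and 3 over the KO libraries, a KO to BM ratio of 0.00122 (95% exact interval 0.000251 to 0.00357). Xcr1, the type 1 chemokine receptor, was at 0.879, 0.979 and 0.695 CPM in BM and only 3.59, 3.42 and 3.34 in KO, and Siglech of plasmacytoid cells at 0 to 0.105 CPM in KO. The summed level of the 18 genes was 1454 to 1494 CPM in BM and 4013 to 4292 CPM in KO, of which Id2 and Irf8 made up most. The part of dendritic cells in the KO libraries was not tested.

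The gene furthest beyond the marrow level among those at higher level was Cd36, a scavenger receptor for lipids. It was at 10.003, 10.2 and 9.82 CPM in BM, 95.5, 85.8 and 98.0 in KO and 1.84, 2.37 and 4.28 in WT, 9.31-fold above BM (log2 3.22, interval 2.91 to 3.53). Gsn, the actin-severing gelsolin gene, was at 226, 244 and 256, 1121, 1113 and 1159 and 88.0, 96.4 and 138 CPM. Cd24a, a surface sialoprotein gene, was at 42.4, 40.3 and 38.8, 173, 172 and 164 and 11.6, 14.9 and 28.2 CPM. Each was highest in all KO libraries, and WT 3 came closest to BM for Cd24a. Lsr, a lipoprotein receptor and tight junction gene, was 5.28-fold and Hsh2d, a haematopoietic adaptor gene, 4.92-fold above BM, from 9.04 and 10.4 CPM on average in BM.

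Of 11 B cell genes measured, 6 were higher and 4 lower in KO than in BM, and 2 of them were beyond the marrow level. Ms4a1, which encodes CD20, was at 0.495, 0.559 and 1.39 CPM in BM, 72.9, 80.3 and 72.0 in KO and at most 0.223 in WT, 91.0-fold above BM. Fcrla was at 0.495, 0.559 and 0.744 CPM in BM and 10.2, 9.57 and 10.2 in KO. Cd22, an inhibitory receptor gene, and Blnk, an adaptor of the B cell receptor, were 9.81-fold and 7.66-fold higher (adjusted p = 1.93e-05 and 7.16e-10). Cd79a, a chain of the B cell receptor, was at 1.48, 1.54 and 2.43 CPM in BM and 0.273, 0.473 and 0.296 in KO, and Pax5 was at 0 to 0.136 CPM in KO. Ighm was at 910.5, 1046 and 953 CPM in BM and 291, 358 and 368 in KO, lower in every KO library. The part of B cells in these values was not tested.

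Other members of the class included genes of low level in BM. Tlr11 and Tlr12, receptors of protozoan profilin, were at 2.03, 2.56 and 4.02 and 1.37, 1.26 and 0.496 CPM in BM and at 17.8, 16.7 and 18.8 and 8.96, 8.36 and 8.58 CPM in KO. Slamf7, a receptor of the SLAM family, was at 6.49, 7.46 and 6.65, 34.3, 34.4 and 33.4 and 0.614, 1.30 and 2.44 CPM in BM, KO and WT. These genes were low in both BM and WT, so that their place in the class rests on small marrow levels. Only 21 of the 58 averaged at least 3 log2 CPM over BM, KO and WT, against 94 of the 109 at the marrow level. At the edge, Rnf150, Dpp4 and Tjp3 exceeded BM by 2.03, 2.07 and 2.1-fold, and Kctd14, Ifi203 and Ifitm6, just outside, by 1.98, 1.98 and 1.99-fold.

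The 5 genes lower than BM, which was itself lower than WT, were Myo7a, Zeb2os, Igfbp4, Fkbp9 and Slc7a2. Myo7a, an unconventional myosin gene, was at 35.2, 40.1 and 44.3 CPM in BM, 15.01, 10.4 and 14.2 in KO and 79.4, 78.3 and 81.8 in WT. Igfbp4, an insulin-like growth factor binding protein gene, was at 14.5, 13.8 and 13.3, 6.82, 5.99 and 6.30 and 29.8, 28.2 and 27.4 CPM. In both, every KO library was below every BM library and every BM library below every WT library.

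The E box CACCTG, the letters that Zeb2 is known to bind, was searched in the same promoters, since the groups were chosen for that gene. It occurred in 19 of 71 promoters of genes at the marrow level and higher than WT (26.8%), in 13 of 36 of those beyond it (36.1%) and in 1756 of 10045 of all genes tested (17.5%). These shares were not tested, and nothing follows from them about binding. The promoters of Plbd1 (chr6:136661894-136662143, minus strand) and Lsr (chr7:30973470-30973719, minus strand) show a single match and 4 matches, in capitals, printed as before.
Plbd1: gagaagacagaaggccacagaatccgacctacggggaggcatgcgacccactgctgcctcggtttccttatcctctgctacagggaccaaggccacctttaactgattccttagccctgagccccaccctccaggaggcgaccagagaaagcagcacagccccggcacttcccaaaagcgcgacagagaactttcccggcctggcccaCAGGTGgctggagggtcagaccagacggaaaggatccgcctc
Lsr: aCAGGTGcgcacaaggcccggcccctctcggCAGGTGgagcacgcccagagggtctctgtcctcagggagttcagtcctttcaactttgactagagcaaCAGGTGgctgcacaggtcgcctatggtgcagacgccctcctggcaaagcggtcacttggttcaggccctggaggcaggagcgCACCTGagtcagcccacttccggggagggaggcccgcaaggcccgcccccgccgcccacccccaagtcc

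**Figure D4:**
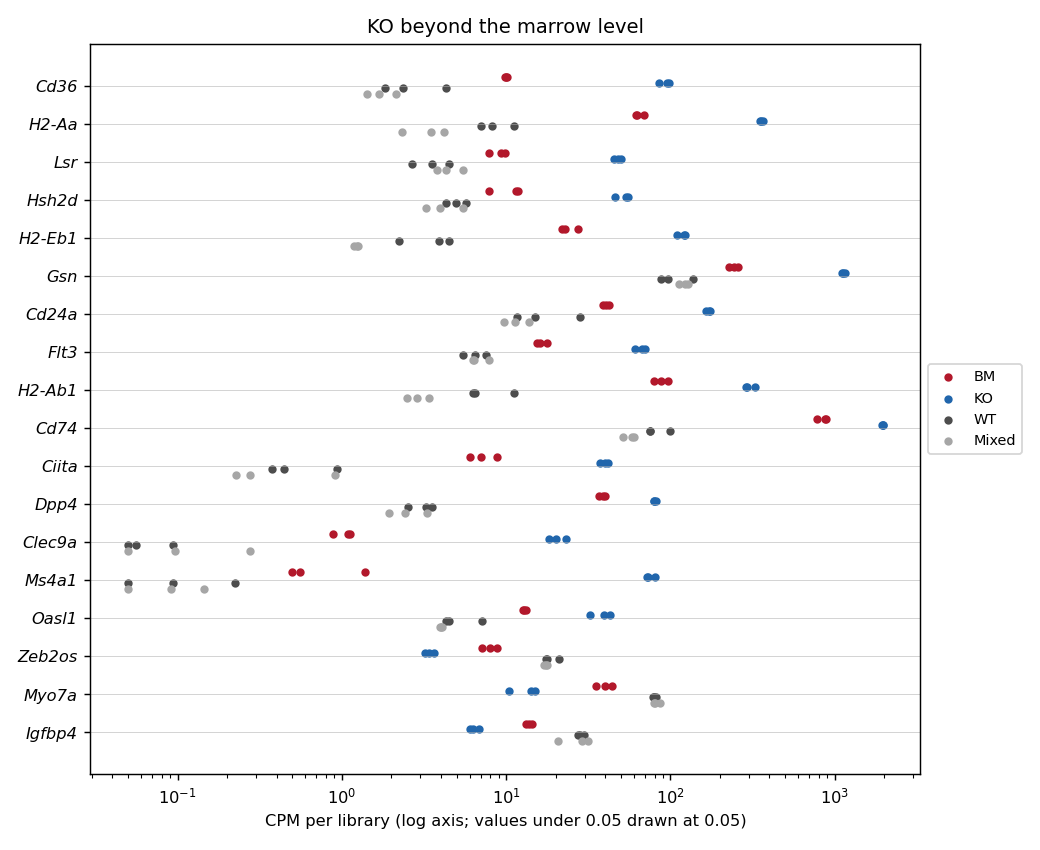
CPM per library on a log axis (values under 0.05 drawn at 0.05) for 18 genes with KO beyond the marrow level, 1 point per library (BM red, KO blue, WT dark grey, Mixed light grey). In the upper 15 genes the KO points lie to the right of all BM points, as for Cd36 at 85.8 to 98.0 against 9.82 to 10.2 CPM, and in the lowest 3 they lie to the left.

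For 785 genes KO was at the WT level while BM stood apart, and among those averaging at least 3 log2 CPM and named by the rule, Igf2bp1, Id3 and Igf2bp3 had the widest gaps between BM and WT. Igf2bp1, which binds mRNAs of fetal growth factors, was at 0.824, 0.0932 and 0.0496 CPM in BM, 136, 125 and 133 in KO and 159, 142 and 156 in WT. Igf2bp3 was at 2.53, 1.68 and 2.08, 145, 137 and 145 and 169, 154 and 159.8 CPM. Id3, an E protein inhibitor like Id2, was at 0.605, 1.17 and 1.54, 199, 199.7 and 189.8 and 194, 182 and 174 CPM, so that of the 2 inhibitors only Id2 also differed between KO and WT by 2-fold or more. Of 14 fetal and adult genes measured, 13 were higher in KO than in BM and 5 were at the WT level, Arid3a, Hmga1 and Igf2bp1 to Igf2bp3. H19 had no count in BM and 186 over the KO libraries, at least 19.1-fold higher.

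On the other side, BM was high and KO and WT were alike low for 366 of the 785 (2.5% of the genes tested), and for the other 419 BM was low (2.87%). Nr4a1, the nuclear receptor required for Ly6C-low monocytes, was at 79.0, 89.0 and 94.3 CPM in BM, 7.96, 6.04 and 8.07 in KO and 7.92, 8.18 and 10.9 in WT. Sirpb1a and Sirpb1c, activating signal-regulatory protein genes, were at 40.7, 45.2 and 44.7 and 159.7, 183 and 168 CPM in BM and at 4.59, 3.05 and 4.56 and 20.7, 15.2 and 18.4 in KO. Sqor, a mitochondrial sulphide oxidase gene, was at 153, 163 and 150.1 CPM in BM and 14.96, 13.03 and 11.7 in KO. Nr4a1 is also an immediate early gene, and 12 of 17 such genes were lower in KO, among them Fos at 215, 305 and 371 CPM in BM and 42.3, 22.4 and 65.1 in KO and Jun at 80.8, 104 and 127 and 10.7, 6.41 and 8.66 CPM. The heat shock gene Hspa1a, at 186, 230.3 and 262 CPM in BM and 4.27, 5.41 and 4.39 in KO, was lower as well (adjusted p = 5.4e-05). Of 13 heat shock chaperone genes, however, 8 were higher and 4 lower in KO, with a median log2 difference of 1.00. Hsp90aa1, an HSP90 chaperone gene, was at 140.1, 139 and 148 CPM in BM, 729, 779 and 694 in KO and 669, 657 and 625 in WT.

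Monocyte genes as groups were lower in KO than in BM. Of 20 classical monocyte genes 16 were lower and 3 higher, with a median log2 difference of -1.62. The median of this list was 1.46 between BM and WT and 0.06 between KO and WT. For the non-classical list these medians were 1.355 and 0.09. A median near 0 did not place the single genes near WT. Of the 20 classical genes 5 were at the WT level and 6 lay outside both BM and WT by 2-fold or more. Of the 16 non-classical genes these were 3 and 5. Over all genes tested, 5.37% were at the WT level, 3.67% above both groups and 2.23% below both. F13a1, the coagulation factor XIII A chain, was at 6780.1, 6968 and 6969.6 CPM in BM, 366, 442 and 362 in KO and 2249, 2351 and 2663 in WT, 17.7-fold lower than BM (adjusted p = 2.4e-18). Lyz2, the lysozyme gene, was 5.12-fold lower (adjusted p = 6.09e-17). Thbs1, thrombospondin 1, was one of the 3 higher, at 22.8, 21.6 and 21.5 CPM in BM and 485, 345 and 357 in KO. Of 16 non-classical genes 9 were lower and 5 higher: Ace fell from 50.2, 58.8 and 66.8 CPM in BM to 0.182, 0.0526 and 0.169 in KO, and Itgax, which encodes CD11c, rose from 2.47, 2.28 and 1.84 to 26.5, 26.1 and 32.8 CPM (adjusted p = 1.34e-18 and 1.63e-13).

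More granule genes of neutrophils were higher than lower in KO. Of 23 secondary and tertiary granule genes 13 were higher and 6 lower, with a median log2 difference of 1.79 and a summed level of 6077 to 6300.0 CPM in BM and 16690.0 to 20330.0 CPM in KO. Chil3 and Cd177, also on the list, fell by far more than the other 4. S100a8 and S100a9, the calprotectin subunits, were at 175, 180.0 and 208 and 62.1, 70.7 and 81.4 CPM in BM and at 6276, 5850.2 and 4969 and 4791, 4810.3 and 4212 CPM in KO. Chil1 was at 3.19, 5.22 and 5.56 CPM in BM and 545, 509 and 530.4 in KO, against 9.87, 12.9 and 24.5 in WT. Cxcr2, the neutrophil chemokine receptor, was at 7.75, 5.78 and 4.02 CPM in BM and 116, 112 and 109 in KO (19.3-fold, adjusted p = 1.92e-13). Ngp did not pass the test (log2 1.12, adjusted p = 0.164), and Ly6g, which defines neutrophils, was at 0.714, 0.839 and 0.943 CPM in BM and 13.4, 11.9 and 8.28 in KO. KO 1 was well above KO 2 and KO 3 in Ltf and Ngp (478, 101 and 139 CPM), whereas Stfa1 and Cxcr2 were close in the 3 KO libraries. The part of neutrophils in these values was not tested.

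Transcription factors changed in both directions, 13 of 36 higher and 18 lower in KO. Cebpe, a factor of granulocyte maturation, was at 10.3, 11.4 and 10.9 CPM in BM and 103, 98.6 and 86.3 in KO (8.84-fold, adjusted p = 6.29e-15), and Cebpa was 8.03-fold lower (adjusted p = 4.46e-11). Klf4, a monocyte factor, was at 172, 177 and 189 CPM in BM and 45.2, 45.3 and 41.9 in KO, at the WT level of 55.7, 52.2 and 51.3 CPM. Spi1, which encodes PU.1, was at 146, 149.5 and 150.2 CPM in BM and 124, 129 and 123 in KO (1.18-fold lower, adjusted p = 0.0058), and Irf8 was 1.45-fold higher (adjusted p = 6.2e-09). Of 16 BMP, TGF-beta and SMAD genes, whose signals Zeb2 is known to modulate, 9 were lower and 2 higher in KO. Tgfbr2 and Tgfbr1 were 1.96-fold and 1.88-fold lower (adjusted p = 5.78e-07 and 2.63e-08), and Ski, a SMAD corepressor gene, 3.17-fold lower (adjusted p = 3.88e-08). Bmpr1a, a BMP receptor gene, went the other way by more, with 3 counts over the BM libraries, 160 over KO and 124 over WT. Its KO to BM ratio was 49.3 (95% exact interval 16.6 to 242, counting error only).

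Lists of surface receptors and secreted factors held genes of both directions. Of 20 chemokine receptor and homing genes 11 were lower and 5 higher: Cx3cr1, the fractalkine receptor, was at 356, 363 and 364 CPM in BM and 22.5, 17.9 and 22.1 in KO. Of 14 cytokines and chemokines 9 were lower and 2 higher, with Ccl9 falling from 294, 292 and 299 to 7.96, 8.99 and 8.16 CPM (35.3-fold, adjusted p = 1.83e-22). Of 21 Toll-like and C-type lectin receptor genes 13 were lower and 5 higher. Tlr7, a sensor of single-stranded RNA, was at 34.6, 39.8 and 41.4 CPM in BM and 3.59, 2.26 and 2.37 in KO, whereas Tlr3, a sensor of double-stranded RNA, was at 1.32, 1.07 and 1.19 and 39.6, 28.8 and 28.6 CPM. They moved in opposite directions by 14.01-fold and 27.1-fold (adjusted p = 1.21e-14 and 3.05e-14). Of 17 complement and Fc receptor genes 9 were higher and 8 lower, with a median log2 difference of 0.34. Fcgr2b, the inhibitory Fc receptor, was 5.89-fold lower and Fcgr1, the high-affinity receptor, 4.06-fold higher in KO, both at the WT level.

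**Figure D5:**
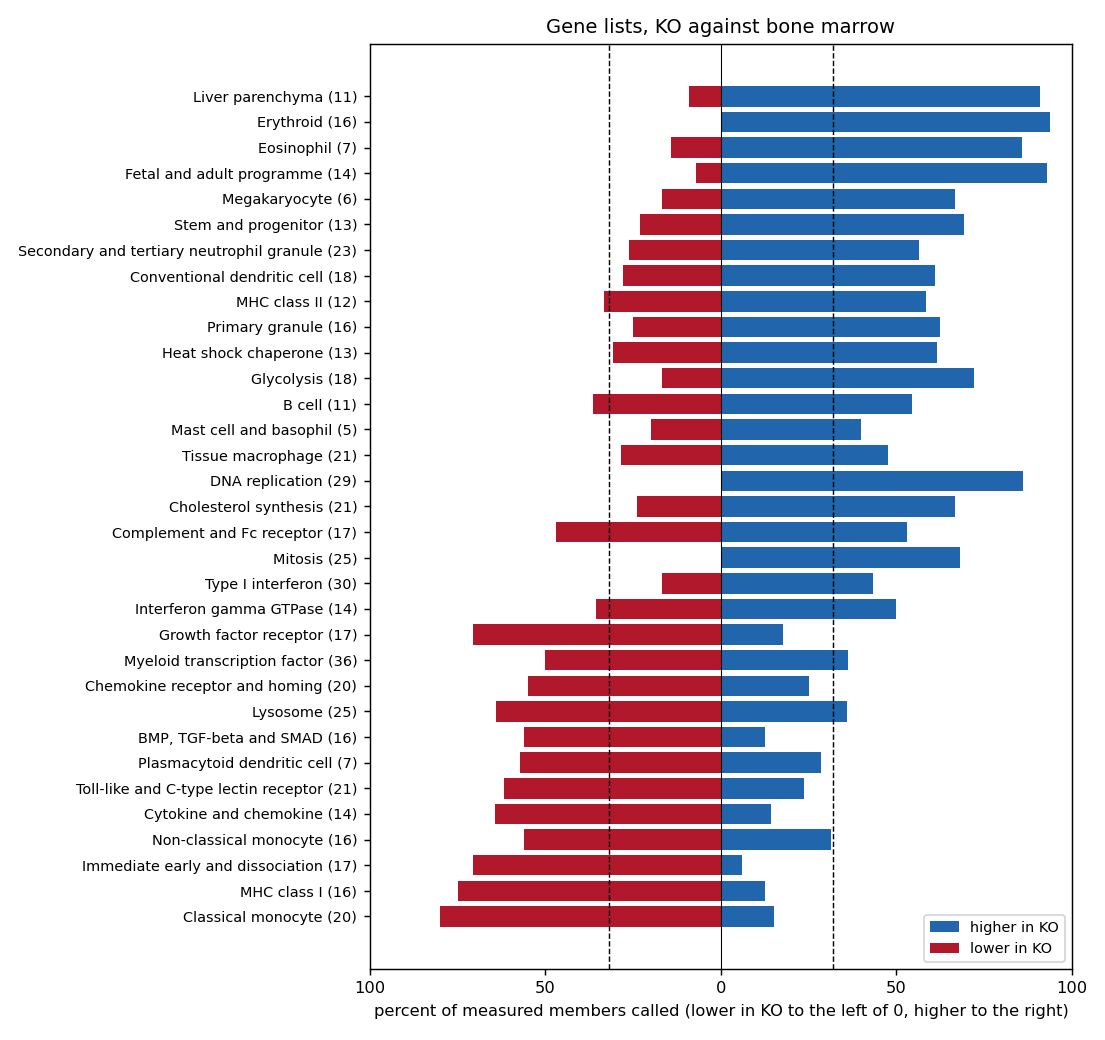
Percent of the measured members of each gene list called higher (blue, right of 0) or lower (red, left of 0) in KO than in BM, with the number of measured members in brackets. Dashed lines mark the shares over all genes tested, 32% higher and 31.8% lower, and the lists range from liver parenchyma and erythroid genes at the top to classical monocyte genes at the bottom.

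Genes of division and metabolism also differed between BM and KO. Of 29 DNA replication genes 25 were higher in KO and none lower, and of 25 mitosis genes 17 were higher and none lower, with median log2 differences of 0.56 and 0.29. Ccnb1, cyclin B1, was at 299, 306 and 290.1 CPM in BM and 602, 578 and 643 in KO (2.04-fold, adjusted p = 7.11e-14), with WT at 544, 549 and 536 CPM. Of 18 glycolysis genes 13 were higher and 3 lower. The lactate dehydrogenase genes moved in opposite directions: Ldha was at 452, 488 and 470.5 CPM in BM and 1935, 1943 and 1827 in KO, and Ldhb at 88.7, 91.2 and 85.5 and 5.002, 5.89 and 6.38 CPM (adjusted p = 2.46e-17 for Ldhb), with Ldha at the WT level. Of 21 cholesterol synthesis genes 14 were higher and 5 lower, with Fdps, farnesyl diphosphate synthase, 4.60-fold higher (adjusted p = 1.48e-18) and above WT as well. Of 25 lysosome genes 16 were lower and 9 higher, among them Cd68 3.003-fold lower, at the WT level, and Ctsl 5.33-fold higher (adjusted p = 4.59e-18).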

How the data were processed

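RNA-seq libraries of mouse Ly6C+ monocytes were made with SMARTer Ultra Low, a kit that does not mark strand, and sequenced on a NovaSeq X Plus, per the labels' protocols. The authors deposited estimated counts per gene, of which 28.5% of nonzero values were not whole (tolerance 0.000001). The submitters' processing notes name DRAGEN, STAR, Subread, featureCounts, Salmon and the build mm10, without roles; the handling of reads shared by genes is not given in the sources used here. CPM and TPM tables also deposited were set aside.

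Of 55774 entries, 287 were identical duplicate rows and were removed. Counts were rounded, and 14618 genes passed filterByExpr (minimum count 10, minimum total 15) over the 12 libraries, whose totals were 17384911 to 24473471. The 40869 genes filtered out held under 0.2% of counts. All 4 groups of 3 entered a single fit of group means with edgeR 4.0.16 in R 4.3.3 (TMM scaling, quasi-likelihood test, Benjamini-Hochberg adjustment over all genes tested), and a gene was called at an adjusted p under 0.05. Intervals are 95% intervals from the fit's coefficients and quasi-likelihood dispersion. The printed CPM were computed from the counts and TMM-scaled library sizes with no prior count; the plot against average level adds a prior count of 2. Floors are 3 counts per library, and intervals of count ratios cover counting error only. The fit and the classes were tested on simulated data. DESeq2 1.42.0 was an alternative.

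The comparison, its gene lists (36) and the rules were chosen with earlier results of these data known. Named genes are Zeb2, Zeb2os, Zeb1, Maf and Id2, the 8 largest changes in each direction and the 8 widest gaps in each class (average of at least 3 log2 CPM, groups not overlapping for the first), and up to 4 called members of each list (average of at least 1 log2 CPM). The rankings by size left out predicted genes, pseudogenes, receptor and immunoglobulin segments, Y-linked genes and Xist. Other X-linked genes were kept. Other genes were named after their values were seen. Some genes are not reported here. Gene positions are those of the GRCm38 annotation, and promoters those of RefSeq (GRCm38.p6), matched by symbol.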

Additional observations from a re-analysis of the deposited data

How the results depend on the processing

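Of the gene counts and of Zeb2, every value outside this list stayed within 1.5 times its main value under the alternatives run. Tested against a 1.5-fold change in place of 0, BM versus KO called 4309 genes, 2196 higher and 2113 lower in KO. The other settings gave 8176 to 9715, and leaving out each BM, KO or WT library in turn gave 8800 to 9531. The Mixed libraries were not left out. The class counts depend on their bound by construction: with 0.32 on the log2 scale KO was at the marrow level for 19 genes and at the WT level for 265, and with 2-fold for 423 and 1531. Leaving out each BM, KO or WT library gave 89 to 127 genes at the marrow level, 49 to 61 beyond it and 703 to 827 at the WT level. With Mixed as the fetal reference 75 genes were at the marrow level, 67 of them among the 109, and with WT 1 alone, the WT library of the age of KO, 128, of which 100 were shared. With the 2 other bounds set aside, 35 of the 109, 27 of the 58 and 247 of the 785 stayed in their class under every other setting run. Zeb2 differed by -3.80 to -3.92 throughout.

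Of 172 named genes tested, 162 kept their direction and their side of the threshold in all 15 refits. Leaving out each BM, KO or WT library gave -0.15 to 0.044 for Dok2, above 0 without BM 2. For Afap1l1 it gave -0.34 to 0.018, above 0 without KO 2. Neither was called with all libraries, and the cause of these changes of direction was not tested. Snhg15, Prr5l and Hbb-y lost their call under some settings, and Usp18, Slc16a6, Sdc3, Ifit1bl1 and Hba-x gained one. The median log2 difference over all genes was 0.00 with TMM and 0.02 with DESeq2 size factors, under which 4846 genes were higher and 4489 lower. Replicate numbers did not pair the samples: deviations from the group means correlated at -0.025, -0.027 and -0.027 for numbers 1, 2 and 3, and 0 libraries matched their own number best. With the replicate number as a replicate block, 9252 genes were called (4628 higher, 4624 lower), 109 were at the marrow level, 108 of them shared, 57 beyond it and 783 at the WT level. Precision is limited by 3 libraries a group and, for genes with few counts in a group such as Stfa2, Clec10a, Alb and H19, by depth.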

Other observations

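Further lists not described above also differed between BM and KO. Of 16 primary granule genes 10 were higher and 4 lower in KO (edgeR quasi-likelihood test), with a median log2 difference of 1.12, and the serine proteases did not move together. Prtn3, proteinase 3, was at 256, 289 and 279 CPM in BM and 647, 604 and 597 in KO, whereas Elane, neutrophil elastase, was at 638, 709 and 648 and 254, 201 and 221 CPM and Ctsg, cathepsin G, at 51.2, 47.9 and 49.8 and 13.4, 15.8 and 15.7 CPM (adjusted p = 9.61e-15 for Elane and 2.73e-12 for Ctsg). Prtn3 was at the WT level. Mpo, myeloperoxidase, was 2.75-fold higher in KO than in BM (adjusted p = 1.6e-09) and highest in WT, at 5043, 5501 and 5916 CPM. Of 13 stem and progenitor genes 9 were higher and 3 lower in KO. Ly6a, which encodes Sca-1, was at 2.03, 1.77 and 2.43 CPM in BM, 76.2, 75.4 and 56.8 in KO and 5.08, 5.90 and 4.42 in WT, so that BM and WT were close and KO stood apart. Cd34 was at 27.1, 29.0 and 25.7, 178, 165 and 180.0 and 524, 519.9 and 560.3 CPM, with KO between the others, and Cd93 was 11.5-fold lower in KO than in BM (adjusted p = 3.18e-12).

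Of 17 growth factor and cytokine receptor genes 12 were lower in KO and 3 higher. Csf2ra, the GM-CSF receptor alpha chain, was 3.93-fold lower (adjusted p = 1.7e-08), and Il1r2, the interleukin 1 decoy receptor, was at 4.73, 4.05 and 4.42 CPM in BM, 90.4, 63.5 and 70.9 in KO and 8.48, 9.61 and 12.3 in WT. Of 14 interferon gamma GTPase genes 7 were higher and 5 lower, and Tgtp1 was beyond the marrow level. At the marrow level there were 0 of the 14, near the share of 0.746% over all genes tested, so nothing follows from that count. Gbp4 was 5.76-fold higher and Gbp3 2.52-fold lower in KO (adjusted p = 4.24e-11 for Gbp4), with Gbp3 at the WT level. Of 21 tissue macrophage genes 10 were higher and 6 lower in KO: C1qb, a complement subunit, was at 2.09, 1.91 and 1.79 CPM in BM and 29.5, 16.9 and 17.4 in KO, and Trem2, a lipid receptor gene, at 56.5, 64.6 and 66.1 and 8.64, 11.1 and 12.7 CPM. Of 7 eosinophil genes 6 were higher in KO, with Prg2, major basic protein, at 0.110, 0 and 0.149 CPM in BM and 11.2, 24.3 and 46.0 in KO. The KO libraries spread widely in Prg2, with KO 3 the highest, the library that also held the most counts of Alb. The part of eosinophils and of tissue macrophages in the KO libraries was not tested.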
